A study of Mus musculus with 18 samples.

Results

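The genes described here code for the precursors of 10 neuropeptides: Npy (neuropeptide Y), Sst (somatostatin), Tac1 (substance P and neurokinin A), Vip (vasoactive intestinal peptide), Cartpt (the CART peptides), Trh (thyrotropin releasing hormone), Crh (corticotropin releasing hormone), Cck (cholecystokinin), Gal (galanin) and Nts (neurotensin). Their probes are those whose gene symbol in the array annotation equals one of these symbols. The 10 genes have 13 of the 45281 probes of the array, which carries 30869 distinct symbols. Npy, Sst, Cck, Gal, Trh, Crh and Cartpt have 1 probe each, and Tac1, Vip and Nts have 2. Of the 10 genes, 9 were detected on all 3 arrays of at least 1 condition, and Crh was not.

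HPRT-knockdown and control ESD3 cells, a mouse embryonic stem (ES) cell line of strain 129s2/SvPas, were compared as ES cells, as spherical neural masses (SNM, the neural precursor spheres of the protocol) and at the final neuronal stage of a dopaminergic differentiation, on Illumina MouseWG-6 arrays. Knockdown cells carried a viral shRNA directed at HPRT, the purine salvage enzyme, which the study's methods describe as designed on the human gene. Control cells carried the same kind of vector with an shRNA for luciferase, so that infection and puromycin selection were common to both lines, and whether either line was grown from 1 clone is not given in the sources used here. ES cultures were kept on mouse embryo fibroblast feeder cells. Each of the 6 conditions has 3 arrays, and these were hybridised with a single pool of RNA from replicate cultures. The SDs, standard errors (SE) and p-values below therefore measure the spread between arrays of a pool and not the spread between cultures, and in such bulk RNA fewer cells of a type and less RNA per cell cannot be told apart.

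Neuropeptides are made as long precursors that enter the secretory pathway. Prohormone convertases cut them, carboxypeptidase E trims the ends, many are then amidated, and the peptides are stored in dense-core granules together with granins until calcium releases them. They act through G protein-coupled receptors, often far from the site of release, and are cleared by peptidases at the cell surface. Sst, Npy, Vip, Cck and Tac1 mark subsets of inhibitory and projection neurons of the forebrain, while Trh, Crh, Gal, Nts and Cartpt are best known from the hypothalamus. The arrays measured the precursor mRNAs, not the peptides.

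Signals below are the deposited bead intensities of arrays 1, 2 and 3, and log2 values are these signals after background correction and normalization. A probe is called detected where its detection p-value is under 0.05, and the lowest detected signal of an array lay between 4.67 and 4.99 on the log2 scale. Between 18827 and 22202 probes were detected per array. Hprt1, the symbol under which the array lists Hprt, was lower in knockdown cells throughout, with log2 differences of -4.09 in ES cells, -1.76 in SNM and -4.45 at the end of differentiation. Its log2 level in knockdown cells was 9.44 ± 0.09 (SD, n = 3 arrays) in SNM, against 7.95 ± 0.19 and 6.60 ± 0.04 before and after it.

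Markers of the labelled cell types were checked first. All 8 pluripotency markers were detected at every stage, with medians falling from 12.47 in control and 12.44 in knockdown ES cells to 9.09 and 7.38 at the neuronal stage. Of 11 neuronal markers on the array, 9 were detected in control and 8 in knockdown cells at the neuronal stage, with medians of 8.93 and 6.63. Th mRNA, for the rate-limiting enzyme of dopamine synthesis and the marker of the intended cell type, was not detected on all 3 arrays of any condition. The study reported TH protein in most cells of both lines at the final stage, by immunostaining and flow cytometry. The arrays do not measure protein, so this probe result does not show whether the intended cells were present. Control cells of the neuronal stage also held all 9 skeletal muscle markers, whose summed signal was 52878 to 63142 over the arrays against 699.5 to 809 in knockdown cells. Knockdown cells held all 12 oligodendrocyte markers there, with a summed signal of 47123 to 56248 against 3505 to 4153 in control cells. The oligodendrocyte list enters Cnp also under its older symbol Cnp1, so this gene was counted under both. The part of these cell types in the peptide differences was not tested.

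**Figure D1:**
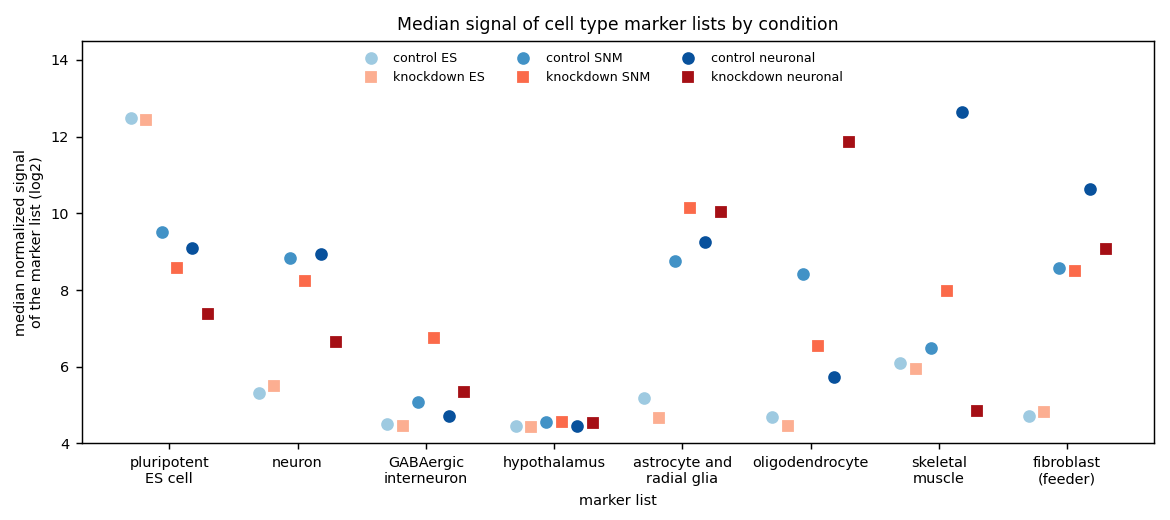
Median normalized signal (log2, y axis) of 8 marker lists (x axis) in the 6 conditions, with circles for control and squares for knockdown cells and darker colours for later stages. Control cells at the neuronal stage stand out by the skeletal muscle list (median 12.65) and knockdown cells at that stage by the oligodendrocyte list (median 11.87), while the neuronal list is lower in knockdown cells (6.63 against 8.93).

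Somatostatin had the widest range of levels over the conditions among the 10 genes. Sst signals were 84.0, 73.2 and 86.1 in control ES cells, 1461, 1807 and 1539 in control SNM and 1642, 1255 and 1452 in control cells at the neuronal stage. Knockdown signals were 76.4, 70.5 and 64.1 in ES cells, 411, 399 and 493 in SNM and 100.5, 103 and 112 in the neuronal cultures. Thus Sst was higher in SNM than in ES cells in both lines, stayed high in control cells and was low again in knockdown cells. On the log2 scale the control levels of 10.54 ± 0.09 and 10.46 ± 0.07 (SD, n = 3 arrays) at the SNM and neuronal stages overlapped, and every other pair of neighbouring conditions in the order of levels was separated on all arrays. Knockdown was 4.16-fold lower at the SNM stage (log2 difference -2.06, SE 0.10, adjusted p = 9.27e-11 by limma). The neuronal difference was -4.67 (SE 0.10, adjusted p = 8.7e-16), or 25.5-fold. At the ES stage Sst was detected on all control arrays and on none of the knockdown arrays, a difference of at least 1.17-fold that was not called (log2 difference -0.57).

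Tac1, the precursor of substance P, was first detected at the SNM stage in both lines. Its signals were 176, 172 and 157 in control SNM, 129.7, 109.6 and 129 in knockdown SNM, 198, 131 and 165 in control cells at the neuronal stage, and 67.7, 64.6 and 63.9 in knockdown cells at that stage. The probe was detected on no ES array of either line and on no knockdown array of the neuronal stage. Knockdown cells were 1.7-fold lower at the SNM stage (log2 difference -0.77, SE 0.13, adjusted p = 0.000158 by limma) and at least 3.87-fold lower at the neuronal stage (adjusted p = 5.13e-10). Without background correction the SNM difference shrank to -0.49 (quantile normalization) or -0.50 (scaling to the 75th percentile), and to -0.39 as the mean over both Tac1 probes, all under the 1.5-fold threshold. A further Tac1 probe was detected on no array.

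Neuropeptide Y was the only one of the 10 genes called higher in control cells between the SNM and the neuronal stage. Npy signals were 517, 564 and 505 in control SNM and rose to 886, 688 and 875 at the neuronal stage. In knockdown cells they were 317, 266 and 377 at the SNM stage and fell to 145, 137 and 157. ES signals lay between 67.2 and 80.5 in both lines, with detection on 1 of 6 arrays. The log2 levels of the 4 differentiated conditions, 9.55 ± 0.06, 8.80 ± 0.04, 7.95 ± 0.19 and 6.53 ± 0.06 (SD, n = 3 arrays) in the order control neuronal, control SNM, knockdown SNM and knockdown neuronal, were separated on all arrays. Knockdown was 1.79-fold lower at the SNM stage (log2 difference -0.84, SE 0.13, adjusted p = 5.45e-05 by limma) and 8.13-fold lower at the neuronal stage (log2 difference -3.02, SE 0.13, adjusted p = 9.01e-12).

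Vip was detected only in control cells, at the SNM stage with signals of 95.2, 108 and 100.4 and at the neuronal stage with signals of 117, 108 and 117. Every other array lay between 52.1 and 65.9 and was not detected. These signals are weak, and the differences are bounds: knockdown was at least 1.97-fold lower at the SNM stage (adjusted p = 6.49e-10 by limma) and at least 2.27-fold lower at the neuronal stage (adjusted p = 1.61e-11). The other Vip probe was detected on no array.

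Cartpt was highest in control SNM, where its signals were 349.6, 372 and 335, against 164, 148 and 163 in knockdown SNM. At the neuronal stage control arrays gave 153, 123 and 150.2 and knockdown arrays 76.9, 84.2 and 76.8. It therefore peaked at the SNM stage in both lines and was lower in knockdown cells at both later stages, with log2 differences of -1.52 (SE 0.14, adjusted p = 1.6e-07 by limma) and -1.42 (SE 0.14, adjusted p = 1.76e-07). The knockdown level at the neuronal stage, 5.00 ± 0.25, overlapped that of control ES cells, 4.98 ± 0.31 (SD, n = 3 arrays). The array also lists a probe under Cart, an older symbol of this gene that the choice by current symbol left out. Cart gave 661, 697 and 549.9 in control SNM and 255, 231 and 269 in knockdown SNM, with log2 differences of -1.56 (adjusted p = 9.72e-08) at the SNM stage and -2.24 (adjusted p = 5.5e-10) at the neuronal stage. Both probes thus fell in knockdown cells, and their neuronal differences were not of the same size.

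The sequences just upstream of these genes are shown because Sst, Npy, Tac1, Vip and Cartpt were all lower in knockdown cells at both later stages, as was Trh (not printed), and because the somatostatin promoter is a textbook example of control by cyclic AMP through the response element TGACGTCA (CRE). They are the 120 bases before the transcript start that the RefSeq promoter table (GRCm38.p6) uses, 5′ to 3′ on the strand of the gene, with TGACG on either strand and TATAAA in capitals:
Sst (chr16:23890845-23890964, minus strand): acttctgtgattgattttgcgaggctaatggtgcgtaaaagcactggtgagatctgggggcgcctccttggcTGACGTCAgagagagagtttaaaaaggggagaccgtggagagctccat
Cartpt (chr13:99900684-99900803, minus strand): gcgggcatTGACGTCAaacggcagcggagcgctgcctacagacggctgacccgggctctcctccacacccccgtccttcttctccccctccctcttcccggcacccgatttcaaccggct
Vip (chr10:5639098-5639217, plus strand): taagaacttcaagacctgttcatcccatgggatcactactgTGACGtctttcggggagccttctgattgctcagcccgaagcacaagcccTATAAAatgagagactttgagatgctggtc
Tac1 (chr6:7554941-7555060, plus strand): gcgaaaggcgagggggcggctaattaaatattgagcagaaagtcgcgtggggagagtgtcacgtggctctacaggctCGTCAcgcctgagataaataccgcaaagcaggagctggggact
Npy (chr6:49822590-49822709, plus strand): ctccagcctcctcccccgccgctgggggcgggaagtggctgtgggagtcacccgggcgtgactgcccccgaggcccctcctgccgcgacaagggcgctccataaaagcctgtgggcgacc
For Sst, Cartpt and Vip this start lies inside the extent that RefSeq gives the gene, so that part or all of the bases shown are within the annotated gene. Of the 10 genes, 9 had an entry, all but Crh. In the 250 bases before these starts, the whole CRE was found for Sst and Cartpt, at positions -48 to -41 and -112 to -105, and in 1.55% of all 32851 promoters of this length. Its core TGACG, which the whole CRE contains on both strands, was found on either strand for Sst, Tac1, Cck, Trh, Vip, Nts and Cartpt, 7 of the 9, and in 17.8% of all promoters. Npy and Gal held neither. The letters TATAAA were found for Vip alone, on either strand, and in 12.4% of all promoters. Genes with the core both fell (Sst, Tac1, Vip, Cartpt, Trh) and rose (Cck, Nts) in knockdown SNM, and a match describes letters, not binding.

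Trh was the only one of the 10 genes detected on all 18 arrays. Its signals were 4239, 4171 and 4543 in control and 4994, 5554 and 4637 in knockdown ES cells, a log2 difference of 0.17 (SE 0.08, adjusted p = 0.193 by limma). At the SNM stage they were 5898, 6994 and 6069 in control and 2725, 2604 and 2874 in knockdown cells. They fell to 757, 635 and 855 in control and to 339, 341 and 315 in knockdown cells at the neuronal stage. This gene, which in the brain drives the release of thyrotropin, thus had its high levels before the neuronal stage in both lines. Knockdown cells were 2.14-fold lower at the SNM stage (log2 difference -1.10, SE 0.08, adjusted p = 1.33e-08) and 2.51-fold lower at the neuronal stage (log2 difference -1.33, SE 0.08, adjusted p = 5.21e-10). All 6 conditions were separated on all arrays, in the order control SNM, knockdown ES, control ES, knockdown SNM, control neuronal and knockdown neuronal.

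Crh was undetected. Its signals lay between 52.8 and 65.1 on 17 arrays, and array 3 of control cells at the neuronal stage, with 79.6, had a detection p-value of 0.030. No comparison of Crh was made. Its binding protein Crhbp, which holds CRH and urocortin away from their receptors, was detected at both later stages in both lines. Crhbp was lower in knockdown cells, with log2 differences of -0.74 (SE 0.18, adjusted p = 0.00264 by limma) in SNM and -1.99 (SE 0.18, adjusted p = 8.54e-08) at the neuronal stage.

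Cck had its highest levels in ES cells in both lines. Signals were 186, 183 and 177 in control and 268, 302 and 243 in knockdown ES cells. They fell to 65.8, 65.9 and 67.3 in control SNM, where the probe was detected on no array, and to 108, 93.7 and 97.7 in knockdown SNM. At the neuronal stage they were 70.0, 70.8 and 72.1 in control and 82.6, 88.0 and 81.7 in knockdown cells. Knockdown was therefore the brighter line at every stage. It was 1.53-fold higher at the ES stage (log2 difference 0.61, SE 0.11, adjusted p = 0.00261 by limma) and at least 1.7-fold higher at the SNM stage (adjusted p = 9.49e-07), and the neuronal difference of 0.53 (SE 0.11, adjusted p = 0.000744) was under the 1.5-fold threshold. The ES call was lost without array 1 (log2 difference 0.58, adjusted p = 0.0632) and without array 3 (log2 difference 0.57, adjusted p = 0.026).

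Galanin changed direction with the stage. Gal signals were 84.3, 85.0 and 94.0 in control and 75.6, 80.0 and 70.8 in knockdown ES cells, then 89.3, 96.5 and 101 in control and 139, 135 and 154 in knockdown SNM. At the neuronal stage they were 91.7, 77.5 and 92.5 in control and 64.7, 69.6 and 72.7 in knockdown cells, where no array detected the probe. Control cells thus stayed near 5.51, 5.51 and 5.22 on the log2 scale, and knockdown cells went from 4.82 to 6.39 and then to 4.58. Knockdown was lower in ES cells (log2 difference -0.69, SE 0.11, adjusted p = 0.000948 by limma), higher in SNM (0.88, SE 0.11, adjusted p = 5.89e-06) and at least 1.39-fold lower at the neuronal stage (adjusted p = 0.000118). The ES call was lost without array 3 (log2 difference -0.55, adjusted p = 0.0591), and the neuronal call without array 1 (log2 difference -0.53, adjusted p = 0.00271). Without background correction the neuronal difference of Gal was -0.28 (quantile normalization) or -0.30 (scaling to the 75th percentile), and with an offset of 50 it was -0.30, all under the 1.5-fold threshold.

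Nts was detected from the SNM stage on in both lines. Signals were 93.2, 83.7 and 92.5 in control and 112, 105 and 141 in knockdown SNM, and 93.5, 77.1 and 103 in control and 81.2, 71.7 and 100.05 in knockdown cells at the neuronal stage, where the lines overlapped. The knockdown level was higher by 0.61 (SE 0.16, adjusted p = 0.00475 by limma) at the SNM stage, and the neuronal difference was -0.18 (SE 0.16, adjusted p = 0.37). Array 3 of knockdown SNM was the highest, and without the arrays numbered 3 the SNM difference was 0.48 (adjusted p = 0.0246), under 1.5-fold. The other Nts probe was detected on no array.

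**Figure D2:**
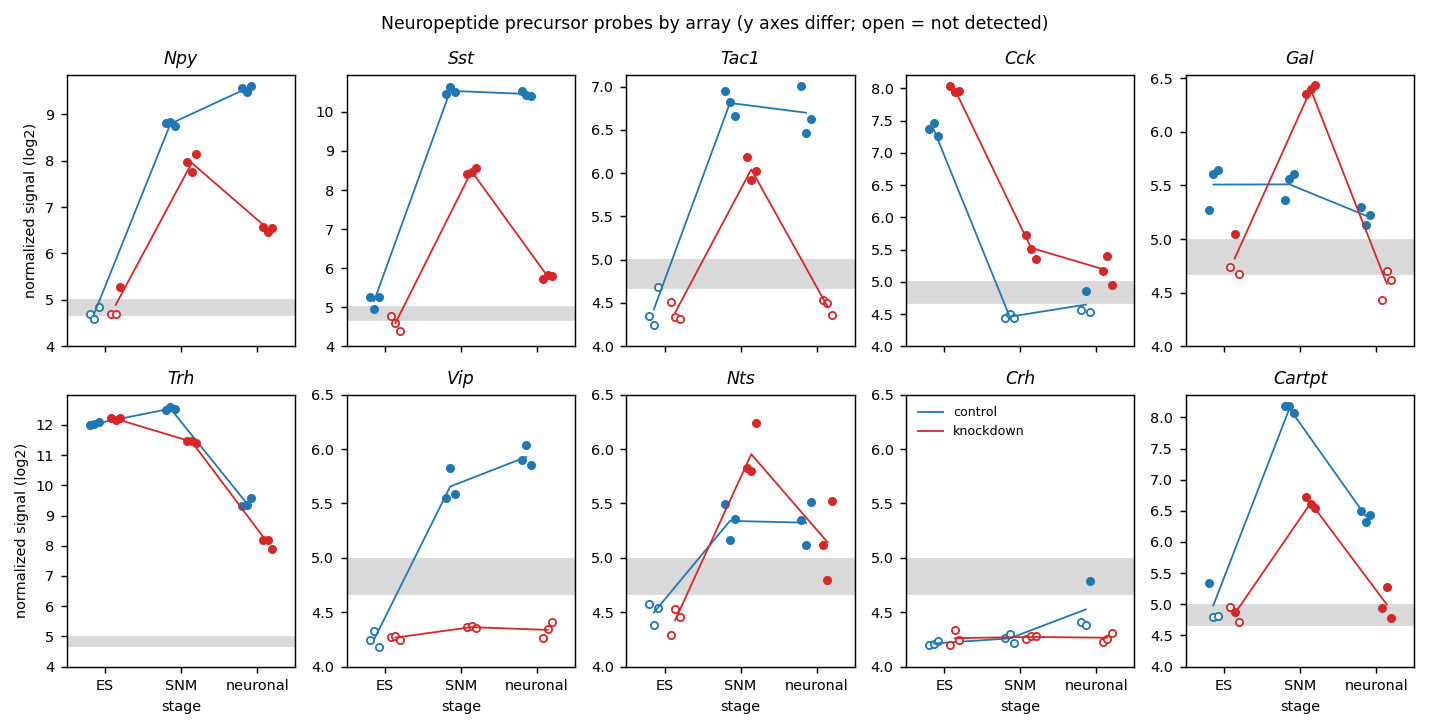
Normalized signal (log2, y axis, a separate scale for each gene) of the brightest probe under the symbol of each of the 10 genes on each of the 18 arrays, by stage (x axis) in control (blue) and knockdown (red) cells. Lines join the means of 3 arrays, open circles are arrays without detection, and the grey band spans the lowest detected signal of the arrays (4.67 to 4.99). Sst, Npy, Tac1 and Cartpt rise in both lines and are lower in knockdown cells, while Gal, Nts and Cck are higher in knockdown SNM.

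Comparison of the lines at each stage asks how these genes differ between knockdown and control cells as they differentiate. With a single RNA pool per condition, HPRT loss cannot be told apart from other differences between the lines or their differentiation. A gene was called where the adjusted p of limma, over all probes tested, was under 0.05 and the change at least 1.5-fold. At the ES stage 4 of the 10 genes could be tested. Cck was called higher, against 0.516% of all probes tested, and Gal lower, against 1.17%. Gal entered this test only through control cells, where it was higher. At the SNM stage 9 were tested and all 9 were called: Cck, Gal and Nts were higher (11% of all probes tested were) and Npy, Sst, Tac1, Trh, Vip and Cartpt lower (8.9%). The median log2 difference of the 9 was -0.84, against -0.04 over all probes tested. At this stage Vip was detected in control cells only and Cck in knockdown cells only, so each entered through the line where it was high. In the neuronal cultures 7 of 9 members were called lower, namely Npy, Sst, Tac1, Gal, Trh, Vip and Cartpt, against 13.5% of all probes tested. None was called higher, against 13.9%, and the median was -1.42 against 0.01. The call of Gal, and with it the count of 7, did not hold without background correction. Tac1, Gal and Vip, detected on no knockdown array of this stage, entered the test only through control cells, where they were high. The detection filter thus set the direction of these calls. The arrays of the lines did not overlap in any of these called differences. They also did not overlap in the uncalled differences of Sst and Trh at the ES stage and Cck at the neuronal stage. How often this held over all probes was not counted, so the lack of overlap adds no support to the calls. With normalization that left out the background correction, or with an offset of 50, none of the 3 genes was called higher at the SNM stage, their differences being smaller than 1.5-fold with adjusted p still under 0.05.

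**Figure D3:**
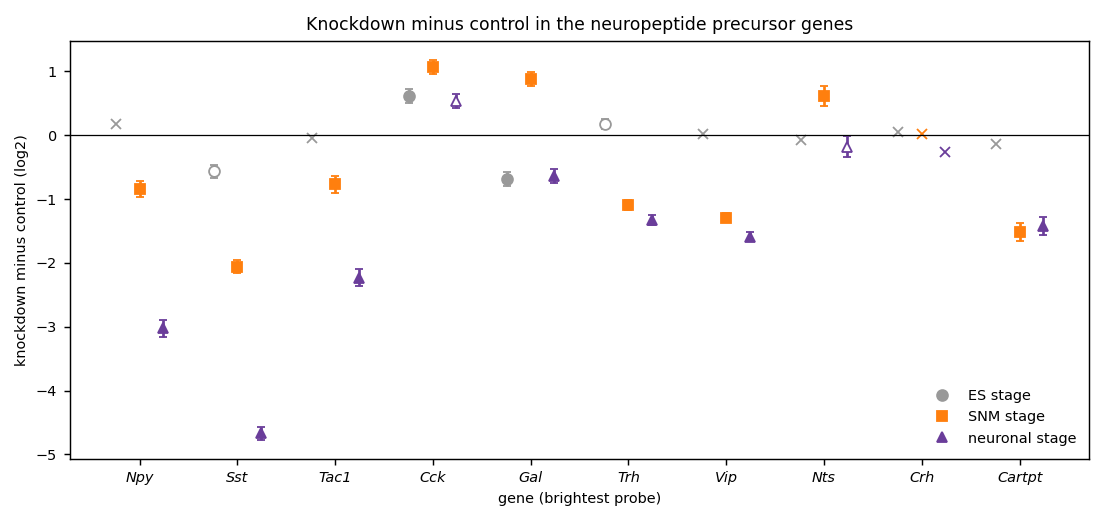
Difference of knockdown and control cells (log2, y axis) for each gene (x axis) at the ES (circles), SNM (squares) and neuronal (triangles) stages, with bars of 1 SE from the limma fit. Filled symbols are called, open symbols were tested and not called, and crosses were not tested. The lowest value is that of Sst at the neuronal stage (-4.67), followed by Npy (-3.02) and Tac1 (-2.24), and differences of probes without detection in 1 line are compressed by the background.

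Differentiation itself changed most of these genes. From the ES to the SNM stage, control cells gained Npy, Sst, Tac1, Vip, Nts and Cartpt, 6 of 9 tested, against 23.7% of all probes called higher, and lost Cck, against 25.4% called lower. Npy, Tac1, Vip, Nts and Cartpt entered this test only through SNM, where they were high, and Cck only through ES cells. The detection filter thus set the direction of these calls. The rise of Sst was 41.6-fold (log2 difference 5.38, SE 0.10, adjusted p = 1.31e-16 by limma), and that of Npy at least 15.2-fold. Cartpt was 8.95-fold higher in SNM by measured means, with detection on 1 of 3 control ES arrays. Knockdown cells gained Npy, Sst, Tac1, Gal, Nts and Cartpt, 6 of 8 tested, against 26.4%, and Cck and Trh were lower, against 30.9%. In them Sst rose at least 11.7-fold, and the log2 differences were 3.06 for Npy and 1.78 for Cartpt, each detected on 1 of 3 ES arrays. None of the genes gained in knockdown cells was detected on all their ES arrays, so all entered the test only through SNM. Trh differed between the lines in this step, with 0.50 (SE 0.08) in control cells, under the 1.5-fold threshold, and -0.76 (SE 0.08) in knockdown cells (difference of the steps -1.26, SE 0.11, adjusted p = 3.16e-07).

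The step from the SNM to the neuronal stage parted the lines. Control cells had Npy called higher (log2 difference 0.76, SE 0.13, adjusted p = 0.000104 by limma), against 14.3% of all probes, and Trh and Cartpt lower, against 15.1%, while Sst, Tac1, Gal, Vip and Nts were not called. Knockdown cells had Npy, Sst, Tac1, Gal, Trh, Nts and Cartpt called lower, 7 of 8 tested, against 14.8% of all probes. None was called higher, against 13.8%. Their log2 differences included -2.69 (SE 0.10) for Sst, -1.42 (SE 0.13) for Npy and -3.36 (SE 0.08) for Trh, and Tac1 was at least 2.46-fold lower. Tac1 and Gal were detected on no knockdown array of the neuronal stage, and so entered the test only through SNM, where they were high. The call of Nts, and with it the count of 7, did not hold without background correction or with an offset of 50. Its log2 difference was then -0.40 (quantile normalization), -0.45 (scaling to the 75th percentile) or -0.46 (offset of 50). Trh was also lower in control cells, with a log2 difference of -3.13 (SE 0.08).

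Whether the difference of the lines, called the knockdown effect here, changed between stages was tested as an interaction. From the ES to the SNM stage it moved down for Npy, Sst, Tac1, Trh, Vip and Cartpt (9.61% of all probes tested were called lower) and up for Gal and Nts (11.7%), with 9 genes tested. From the SNM to the neuronal stage it moved down for Npy, Sst, Tac1, Gal and Nts, 5 of 9, against 14.8% of all probes, and up for none, against 13.7%. For Trh the later interaction was -0.23 (SE 0.11, adjusted p = 0.103 by limma) and for Cartpt 0.09 (SE 0.19, adjusted p = 0.721). The probe listed as Cart gave -0.68 (SE 0.19, adjusted p = 0.00776) in the same test, so the probes of this gene did not give the same call.

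Other peptide precursors did not share 1 direction. Of 48 listed, 44 were on the array and 18 were tested at the SNM stage, of which 4 were higher in knockdown cells (Pdyn, Pmch, Npb and Nppa) and none was called lower, with a median of 0.30. Over all probes tested at this stage 11% were higher and 8.9% lower, with a median of -0.04. Pmch, the precursor of the hypothalamic melanin-concentrating hormone, was detected in knockdown SNM and in no other condition, at a log2 level of 7.66 and at least 7.47-fold above control SNM (adjusted p = 1.03e-14 by limma). Pdyn, the precursor of the dynorphins, was higher in knockdown cells by 1.22 (SE 0.12) at the SNM stage and by 0.81 (SE 0.12) at the neuronal stage. Later, at the neuronal stage, 4 of 16 were higher (Pdyn, Npvf, Npb and Ucn2) and 5 lower (Penk1, Adcyap1, Grp, Calca and Pthlh), against 13.9% and 13.5% of all probes. Ucn2, urocortin 2, was at least 6.61-fold higher and Npvf higher by 1.21 (SE 0.13). Calca, which codes for calcitonin and CGRP, had a log2 difference of -1.39 (SE 0.09), and Penk1, the enkephalin precursor, of -0.93 (SE 0.11).

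Marker lists were also compared between the lines in SNM, where 11% of all probes tested were higher and 8.9% lower in knockdown cells. Of 7 hypothalamic transcription factors tested there, 4 were higher (Nkx2-1, Rax, Fezf1 and Nkx2-4) and none was lower, and Otp and Sim1 were detected on all arrays of no condition. In the neuronal cultures 5 were tested, of which Nkx2-1, Fezf1 and Nkx2-4 were higher and Isl1 lower (13.9% and 13.5% of all probes). Of 9 GABAergic interneuron markers tested, Gad1, Slc32a1, Dlx1, Dlx2, Dlx6 and Pvalb were higher and Calb2 lower in knockdown SNM, the stage at which Sst, Npy, Tac1 and Vip were lower. By the neuronal stage Gad1, Slc32a1, Calb2 and Pvalb were lower and Dlx1, Dlx2 and Sox6 higher, against 13.5% and 13.9% of all probes tested. The summed signal of the interneuron list was 2672 to 2868 in control and 4376 to 4814 in knockdown SNM, and 3896 to 4757 and 1854 to 1972 at the neuronal stage. Of 9 neuronal markers tested, 3 were lower and 1 higher in knockdown SNM. At the neuronal stage 7 were lower (13.5% of all probes), with a median difference of -1.97. Of 7 autonomic and sensory neuron markers tested in SNM, Hand2 was higher and Phox2a and Pou4f1 lower. In the same comparison 6 of 11 oligodendrocyte markers were lower and none higher, while 6 of 8 skeletal muscle and 4 of 8 astrocyte markers were higher and none lower. The part of these lists in the peptide differences was not tested.

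Of the genes that process and store peptides, most of those tested were higher in knockdown SNM. Of 22 listed genes, 21 were on the array and 18 were tested at this stage, and 12 were higher and none lower (11% and 8.9% of all probes), with a median of 0.92 against -0.04 over all probes. They included Cpe, the trimming carboxypeptidase (log2 difference 1.42, SE 0.09), Resp18 (1.97, SE 0.11), Cadps, which primes dense-core granules for release (1.49, SE 0.08), and the granin Chgb (1.44, SE 0.14). Pcsk2, the convertase that cuts many neuropeptide precursors, was also higher, by 0.77 (SE 0.14, adjusted p = 0.000221 by limma). Pcsk1, Pcsk5 and Ptprn2 were not tested, having no condition at this stage with detection on all arrays.

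The list split at the neuronal stage, with 7 higher and 7 lower of 18 tested (13.9% and 13.5% of all probes) and a median of 0.46 against 0.01. The log2 difference was -2.26 (SE 0.14, adjusted p = 7.45e-10 by limma) for Pcsk2, -1.54 (SE 0.08) for Cadps, -1.24 (SE 0.08) for Scg2 and -1.12 (SE 0.10) for Cadps2, and Chga, Chgb and Resp18 were lower too. Higher in knockdown cells were Pcsk6 by 2.07 (SE 0.11), Pcsk1n by 1.77 (SE 0.12), Qpct by 1.62 (SE 0.09) and Ctsl by 0.92 (SE 0.16), with Scg5, Cpe and Scg3. Genes known from neuroendocrine granules were thus in both groups, with Chga, Chgb, Scg2, Cadps and Cadps2 lower and Pcsk1n, Scg5, Cpe and Scg3 higher. At the ES stage none of 10 tested was called in either direction.

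**Figure D4:**
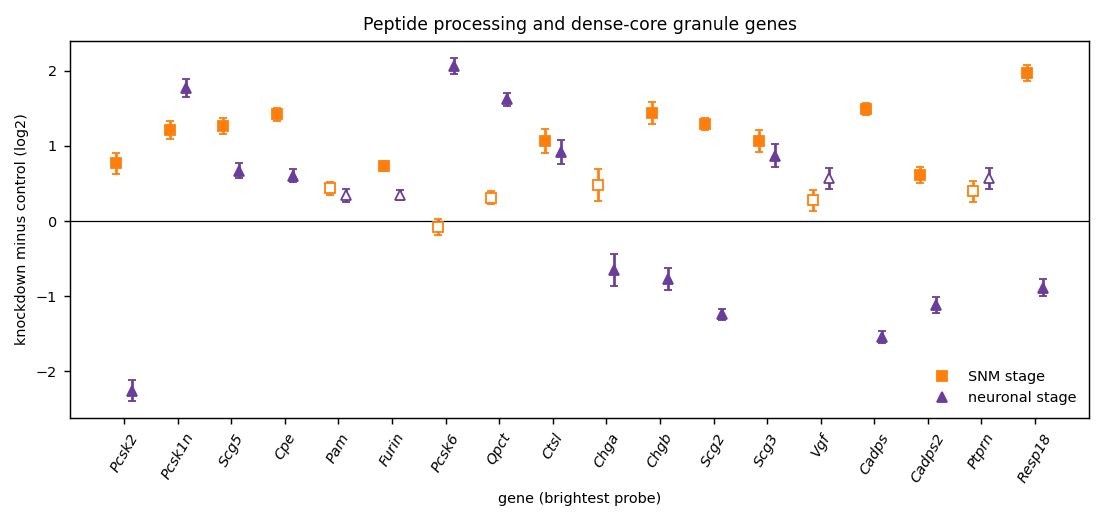
Difference of knockdown and control cells (log2, y axis) for 18 genes of peptide processing and dense-core granules (x axis) at the SNM (squares) and neuronal (triangles) stages, with bars of 1 SE from the limma fit. Filled symbols are called and open symbols are not. At the SNM stage no gene is called lower, and at the neuronal stage Pcsk2, Chga, Chgb, Scg2, Cadps, Cadps2 and Resp18 are.

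Receptors for these peptides were few. Of 27 listed, 26 were on the array, of which between 2 and 7 were detected on all arrays of a condition. The log2 level of Sstr2, a somatostatin receptor, was 8.29 in control and 7.74 in knockdown SNM, and 8.02 and 5.78 at the neuronal stage, where knockdown was lower (log2 difference -2.24, SE 0.14, adjusted p = 1.13e-09 by limma). The SNM difference of -0.56 (SE 0.14) was under the 1.5-fold threshold. Cckbr, a cholecystokinin receptor, was higher in knockdown cells by 1.98 (SE 0.12) at the SNM stage and by 1.76 (SE 0.12) at the neuronal stage. Ntsr2, a neurotensin receptor, was at least 3.02-fold higher at the SNM stage and higher by 1.65 (SE 0.08) at the neuronal stage.

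Tacr1, the receptor of substance P, was higher in knockdown SNM by 1.29 (SE 0.13), whereas Tac1 itself was lower there. Tacr3 was lower at the neuronal stage (log2 difference -0.70, SE 0.11). Npy1r, a neuropeptide Y receptor, was detected at the SNM and neuronal stages of both lines and was not called (differences of 0.33 and -0.04). Galr2 was not called in SNM (0.28, SE 0.18), and Trhr was detected on all arrays of no condition. Of 11 peptidases and binding proteins tested, 3 were higher in knockdown SNM (Mme, Enpep and Pgpep1; 11% of all probes) and 2 lower (Ece2 and Crhbp; 8.9%), and Prep and Crhbp were lower at the neuronal stage (13.5%).

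**Figure D5:**
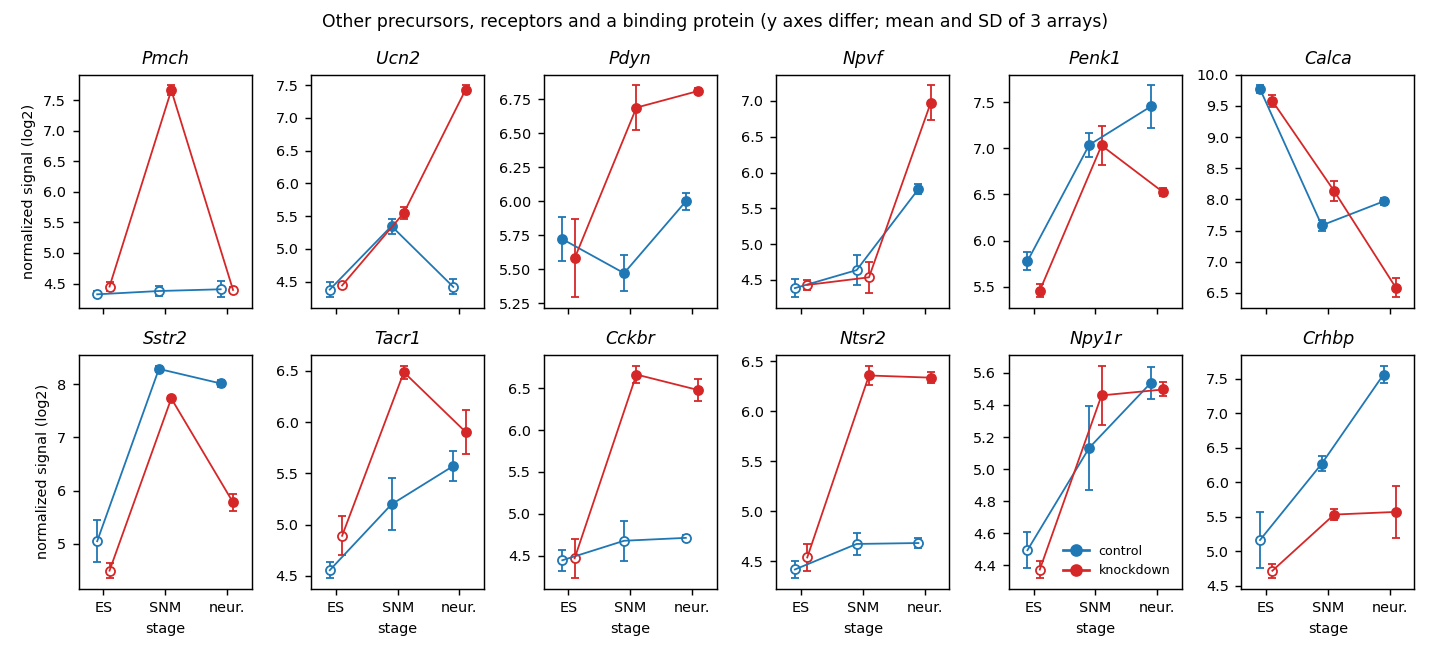
Normalized signal (log2, y axis, a separate scale for each gene) of 12 further genes of peptide signalling, named from the called genes of the lists with the receptor Npy1r, by stage (x axis) in control (blue) and knockdown (red) cells. Circles are means and bars are SDs of 3 arrays, and open circles mark conditions without detection on all 3. Pmch stands up in knockdown SNM alone (7.66), Ucn2 in knockdown cells at the neuronal stage (7.43), and Cckbr and Ntsr2 in knockdown cells at both later stages.

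The genes most like each member over the 18 arrays were sought among 23172 probes detected in at least 1 condition, for members whose condition means spanned at least 2 on the log2 scale. These arrays come from 6 RNA pools, so Pearson's r is given as a description. Sst was closest to Ebf3 (r = 0.987), Ebf2 (r = 0.986) and Tac1 (r = 0.983), the last being a member itself. Tac1 was closest to Dusp4 (r = 0.984), Sst and Uncx (r = 0.977), and Npy to Col23a1 (r = 0.989), Tgfbi (r = 0.988) and St8sia4 (r = 0.987). For Cartpt the closest was the probe listed as Cart (r = 0.987), then Fdps (r = 0.980) and Crabp1 (r = 0.979). Trh was closest to Sfrs1 (r = 0.995), Cdca3 (r = 0.994) and Lmnb1 (r = 0.991), and Cck to Fzd5 (r = 0.991), Rage (r = 0.989) and an unnamed gene model (r = 0.988).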

How the data were processed

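Illumina bead arrays were read as deposited by the authors: an average bead signal intensity per probe, without background subtraction or scaling between arrays, and a detection p-value against negative-control beads. A second deposited table served as probe annotation, and its 72 columns of per-sample values, which carry no sample names, were not used. Arrays were grouped by their labels. limma's neqc used the detection p-values to remove background, added an offset of 16, applied quantile normalization and took log2, which compresses differences of dim probes. limma 3.58.1 in R 4.3.3 was fitted to the 6 conditions together, in place of the unpaired test of the study's methods, which was run as an alternative, since a single model shares the spread of 18 arrays. Probes entered a test if all 3 arrays of a condition compared detected them (p under 0.05), p-values were two-sided with Benjamini-Hochberg adjustment over all probes tested, and calls also needed a 1.5-fold change. An exact permutation test of 3 against 3 arrays cannot reach 0.05 and was not used. Where no array of a condition detected a probe, the fold is a lower bound against the higher of that probe's level and the lowest detected signal of each array. A gene was represented by the brightest probe listed under its symbol, which for Cartpt left out the probe listed as Cart, brighter in SNM. The genes and lists were chosen with earlier results of these data known. Named genes are all members, Hprt1, called genes of the lists, receptors and binding proteins of called members, and the 3 genes most correlated with a member whose means spanned at least 2 on the log2 scale. Th, Otp, Sim1, Pcsk1, Pcsk5 and Ptprn2 were named in addition, after their values were seen, as genes without detection. Arrays of the same number deviated together in both lines at the SNM stage (correlations 0.56, 0.11 and 0.54) and at the neuronal stage (0.70, 0.10 and 0.39). They also did in knockdown cells across these stages (0.60, 0.13 and 0.57) and from the ES to the SNM stage (0.42, 0.07 and 0.28). In the other comparisons not all pairs did, so that a fit with the number as a block was also made. Other alternatives were 2 normalizations with no background correction (quantile, or scaling by the 75th percentile), an offset of 50, other detection limits, the mean over all probes, leaving out each array number and a 2-fold threshold. The fits were tested on simulated data. Tables used pandas 2.3.3 and figures matplotlib 3.10.9.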

Additional observations from a re-analysis of the deposited data

Results flagged for a closer look

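The knockdown effect differed between stages by an interaction test in limma for the following genes, given as the later minus the earlier log2 difference of knockdown and control cells. From the ES to the SNM stage the values were -1.02 for Npy, -1.49 for Sst, -0.73 for Tac1, -1.26 for Trh, -1.31 for Vip and -1.38 for Cartpt, with adjusted p between 7.76e-08 and 0.00577, and 1.57 for Gal (adjusted p = 1.06e-06) and 0.68 for Nts (adjusted p = 0.0262). From the SNM to the neuronal stage the measured values were -2.18 for Npy, -2.61 for Sst, -1.47 for Tac1, -1.52 for Gal and -0.79 for Nts, with adjusted p between 1.81e-10 and 0.00967. Tac1 and Gal were detected on no knockdown array of the neuronal stage, so that these last values of theirs rest on a level at the floor of the array. Gal and Nts went up in the first step and down in the second. Of these genes all but Trh were without detection on some ES array, so that their first values rest on signals near the lowest detected signal. The first value of Tac1 was -0.59 (adjusted p = 0.0961) without the arrays numbered 2. Under quantile normalization it was -0.49, with scaling to the 75th percentile -0.43, with an offset of 50 -0.53, and as the mean over both probes -0.38. Each of these other settings left it under the 1.5-fold threshold. The first value of Nts was 0.72 (adjusted p = 0.125) without the arrays numbered 1 and 0.55 (adjusted p = 0.0749) without those numbered 3. Its second value was -0.91 (adjusted p = 0.053) without those numbered 1.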

How the results depend on the processing

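The called differences of the 10 genes numbered 56. Over 13 alternative settings, 628 of 702 values kept their direction and call, 74 lost the call and 0 reversed. Calls of Sst and Cartpt were kept under every setting run, and all 6 calls of Nts were lost under some. The settings with the most lost calls were scaling to the 75th percentile (14), a 2-fold threshold (14), quantile normalization (12) and an offset of 50 (12), which shrink the folds of dim probes or raise the threshold. At the ES stage the 1 gene called higher became 0, and the 1 called lower became 0, under quantile normalization, scaling to the 75th percentile, the offset of 50, the methods' t-test with Benjamini-Hochberg adjustment and the 2-fold threshold. The gene called lower was also lost with detection p under 0.01. Without each array number in turn the ES counts ranged from 0 to 1 higher and from 0 to 2 lower, Sst being called too without number 1 (log2 difference -0.62) or 2 (-0.67). At the SNM stage the 3 genes called higher became 0 under both normalizations without background correction and the offset of 50, and 1 at 2-fold. The 2 genes with an upward interaction from the ES to the SNM stage became 1 (Gal) under those 3 settings, with no detection filter, with the mean over all probes and at 2-fold, and ranged from 1 to 2 without each array number. At 2-fold, the 2 genes lower in knockdown cells from the ES to the SNM stage became 1, and the 1 gene higher in control cells from the SNM to the neuronal stage became 0. From the ES to the SNM stage Nts in control cells was 0.10 (adjusted p = 0.296) with scaling to the 75th percentile.

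With the array number as a block, paired by the labels, 56 of 56 called differences kept their call, and over all probes the calls at the SNM stage went from 4127 to 4223. Counts over all probes moved by more than 1.5 times as follows. For knockdown against control, ES calls went from 310 to 57 (quantile), 56 (75th percentile), 81 (offset of 50), 78 (t-test with adjustment) and 25 (2-fold), SNM calls from 4127 to 2326, 2452 and 2561 under the first 3 of these and 1267 at 2-fold, and neuronal calls from 5732 to 3690, 3760 and, at 2-fold, 2636. From the ES to the SNM stage the 2-fold counts were 5659 of 10167 in control and 7560 of 12292 in knockdown cells. From the SNM to the neuronal stage, 6088 calls in control cells became 3781, 4006 and 2485, and 6051 in knockdown cells became 3820, 3854 and 2649 (quantile, 75th percentile and 2-fold). The 4721 interaction calls of the first step became 2564, 2938, 2848 and 1491 (quantile, 75th percentile, offset of 50 and 2-fold), and the 6331 of the second step 4025 (quantile) and 3051 (2-fold). The number of arrays, all from 1 pool per condition, limits the precision, and probes near the lowest detected signal have compressed differences.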
